A study of Mus musculus with 6 samples.

Results

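In all, 10 genes of glucose use were followed in mouse embryonic stem cells with and without the RNA helicase gene Ddx5. They encode the glucose transporters Slc2a1 and Slc2a3 and the enzymes Hk2, Gpi1, Pfkl, Pfkp, Aldoa, Pgk1, Pkm and Ldha. The genes were chosen by name, with earlier results of these data known, so their comparison with all genes is a description only. All 10 are present among the 10989 genes of the deposited expression table. All cells were of the MPI-II line at passages 13 to 18, grown on feeder cells in high-glucose medium. Serum and leukemia inhibitory factor were added, with PD0325901 to inhibit MEK and CH99021 to inhibit GSK3. The wild-type (WT) group, DDX5+/+, has 2 libraries numbered as replicates. The knockout (KO) group, DDX5-/-, has 4 libraries numbered as lines, each grown from a single clone after a Cas9 nickase had been directed to the second exon of Ddx5 and cells had been selected with G418. The series description mentions triplicate sequencing, which matches neither number. Whether the WT replicates were grown as separate cultures is not stated, so the p-values measure only the spread between these libraries.

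Glycolysis splits glucose into pyruvate in the cytosol. Glucose enters through facilitative transporters, is trapped as glucose 6-phosphate by hexokinase, and is committed to the pathway by phosphofructokinase. Aldolase then cleaves the sugar, phosphoglycerate kinase and pyruvate kinase make ATP, and lactate dehydrogenase turns pyruvate into lactate. Mouse embryonic stem cells use this pathway, and several of its genes are known targets of hypoxia-inducible factor (HIF). HIF is a transcription factor that binds the DNA core ACGTG or GCGTG.

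Expression was measured by RNA sequencing. The values, called CPM by the authors, are whole numbers with nearly the same distribution in every library, and are given here in deposited units. Sequencing depth is unknown. High values lie on coarse steps: in each library 160 genes reached 10000 units, on only 16 steps separated by more than 1%, most of them shared by 10 genes. Of the 10 genes, 6 (Slc2a3, Gpi1, Aldoa, Pgk1, Pkm and Ldha) had a mean level above 10000 units in both groups, so their differences are quantised. Steps also occur at lower levels. In every KO line 10 genes, itself included, lay within 1% of the level of Slc2a1, and likewise for Pfkp. Whether levels were divided by transcript length is not given in the sources used here, so sums and comparisons of level across genes are rough. Ddx5 itself had 36433 and 36436 units in WT, against 5854, 8450, 12793 and 5659 units in KO lines 1 to 4, below both WT libraries in every line. Of 16 measured embryonic stem cell markers none was at 0 in any library. In KO, 1 of them was higher (Nanog, log2 0.89) and 2 were lower (Klf4, -0.94, and Lin28a, -1.62) by the test given below. The other 13, among them Pou5f1, which encodes Oct4, did not pass. Shares over all genes were 9.75% higher and 7.34% lower.

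Of the 10 genes, 4 rose in the KO lines, namely Slc2a1, Gpi1, Pfkl and Pfkp, none fell, and 6 did not pass the test. The test was limma's moderated test on log2(scaled level + 1), with Benjamini-Hochberg adjustment over all genes and a threshold of 0.05. Over all 10989 genes, 9.75% were called higher and 7.34% lower. At an unadjusted p below 0.05 in limma, 4 of the 10 were higher and 0 lower, beside 2241 higher and 1720 lower of all 10989 genes. The median log2 difference of the 10 genes was 0.43, beside 0.04 over all genes. The difference was positive for all 10, and for 5956 of the 10989 genes. For 5 genes, the 4 that rose and Hk2, all 4 KO lines lay above both WT libraries, which holds for 24.1% of all genes. The number called depended on the libraries used: 0 without KO line 2 (4 at an unadjusted p below 0.05), 1 without KO line 1 or WT replicate 2, 2 without KO line 3 or KO line 4, and 4 without WT replicate 1.

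**Figure D1:**
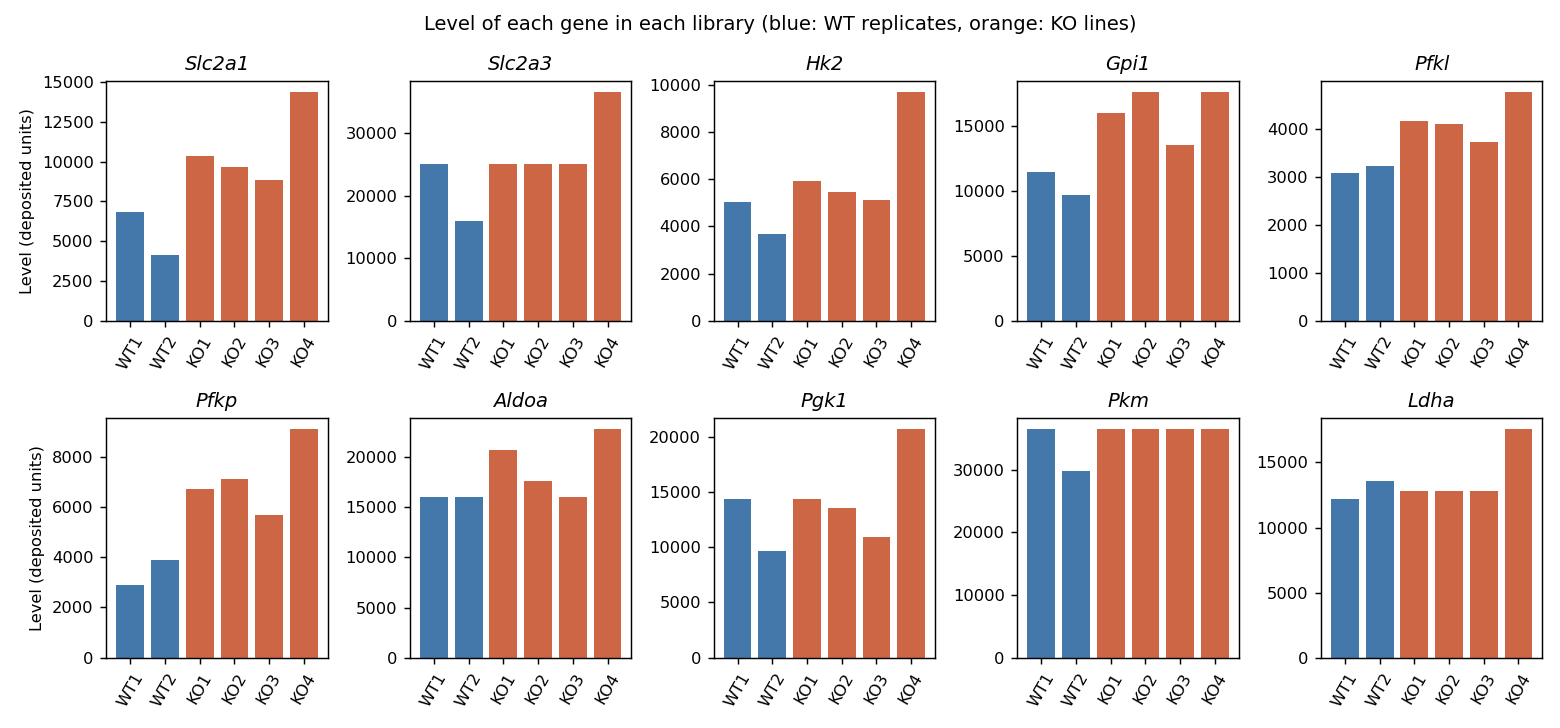
Level of each of the 10 genes in deposited units (vertical axis, from 0) in WT replicates 1 and 2 (blue) and KO lines 1 to 4 (orange), 1 bar per library. KO line 4 is the highest library or tied for it in all 10 panels, and the bars of Pkm are equal in 5 of the 6 libraries.

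The glucose transporters came first in the pathway. Slc2a1 encodes GLUT1, the transporter of basal glucose uptake (ENSMUSG00000028645, chromosome 4, 119108711 to 119137983, plus strand, build mm10). WT replicates 1 and 2 had 6816 and 4148 units of it, and KO lines 1 to 4 had 10374, 9664, 8853 and 14342 units. Every KO line lay above both WT libraries, and WT replicate 2 was the lowest. The mean went from 5482 ± 1887 (SD, n = 2) to 10808 ± 2436 (SD, n = 4), a 1.97-fold rise (log2 1.00, SE 0.247, limma adjusted p = 0.037). The call rested on the full set of libraries: it held without WT replicate 1 (log2 1.35) and was lost without each of the other 5 (log2 0.64 without WT replicate 2).

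Slc2a3 encodes GLUT3, a transporter of high glucose affinity (ENSMUSG00000003153, chromosome 6, 122727809 to 122801640, minus strand). Its WT levels were 24994 and 16018 units, against 24994, 24994, 24994 and 36436 units in KO lines 1 to 4. In all, 3 KO lines shared the step of WT replicate 1, KO line 4 was higher and WT replicate 2 lower, so the groups overlapped. The difference did not pass (log2 0.46, SE 0.222, adjusted p = 0.186). It was 0.14 without WT replicate 2 and 0.78 without WT replicate 1 (adjusted p = 0.0501). Chromosome 6 as a whole was higher in KO line 4 than in the mean of the other KO lines (median log2 0.45 over 518 genes), and for Slc2a3 that excess was 0.54.

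The ratio of Slc2a1 to Slc2a3 differed between the groups without overlap. On the log2 scale it was -1.87 and -1.95 in WT and -1.27, -1.37, -1.50 and -1.34 in the KO lines. The mean was 0.54 higher in KO, with a range of 0.50 to 0.58 when each library was left out. Slc2a3 was tied at 24994 units in WT replicate 1 and KO lines 1 to 3, so among those libraries the ratio follows Slc2a1 alone. How often other pairs of genes give separated ratios was not computed, for this pair or for Pfkp and Pfkl below. An exact two-sided permutation test of 2 against 4 libraries gave p = 0.0667, the smallest p it can give (adjusted p = 0.133 over 4 pairs of genes). Slc2a8, another measured transporter gene, went from 239 and 297 units to 494, 365, 344 and 492 units and did not pass (log2 0.62, adjusted p = 0.0697).

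Enzymes of the first steps included the other genes that rose. Hk2 encodes hexokinase 2, the inducible form of the enzyme that phosphorylates glucose (ENSMUSG00000000628, chromosome 6, 82725025 to 82774454, minus strand). WT replicates had 5052 and 3676 units of Hk2, and the KO lines had 5928, 5454, 5120 and 9668 units. KO line 3 lay just above WT replicate 1, and KO line 4 stood far above the others. The difference did not pass (log2 0.55, SE 0.267, adjusted p = 0.185), and without KO line 4 it was 0.35. The excess of KO line 4 over the other KO lines was 0.81 for Hk2, again beside 0.45 for chromosome 6.

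Its relative Hk1, the widely expressed hexokinase 1, was not among the 10 genes and rose more evenly. Levels of 1594 and 1381 units in WT compared with 3212, 3538, 2783 and 3430 units in KO lines 1 to 4. This is 2.18-fold more in KO (log2 1.11, SE 0.124, adjusted p = 0.00474), which passed with any single library left out (log2 1.01 to 1.22).

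Gpi1 encodes glucose-6-phosphate isomerase, which turns glucose 6-phosphate into fructose 6-phosphate (ENSMUSG00000036427, chromosome 7, 34201330 to 34230336, minus strand). Levels of 11412 and 9668 units in WT compared with 15992, 17548, 13545 and 17548 units in KO lines 1 to 4. All KO lines lay above WT, and KO lines 2 and 4 shared a step. The mean rose from 10540 ± 1233 (SD, n = 2) to 16158 ± 1890 (SD, n = 4), a 1.53-fold rise (log2 0.61, SE 0.130, adjusted p = 0.0236). Its call was lost without WT replicate 2, KO line 1 or KO line 2 (adjusted p = 0.088 at most).

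Phosphofructokinase, which makes fructose 1,6-bisphosphate at the main control point of glycolysis, is built from liver, platelet and muscle type subunits. Pfkp, the platelet type (ENSMUSG00000021196, chromosome 13, 6579768 to 6648777, minus strand), had 2896 and 3870 units in WT, against 6696, 7108, 5660 and 9090 units in KO lines 1 to 4. The groups lay well apart, with the lowest KO line 1790 units above the higher WT library. The mean rose 2.11-fold, from 3383 ± 689 (SD, n = 2) to 7138.5 ± 1437 (SD, n = 4; log2 1.07, SE 0.199, adjusted p = 0.0168). This was the largest difference among the 10 genes, and of the 6 single-library removals only that of KO line 2 ended the call (adjusted p = 0.0569).

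Pfkl, the liver type (ENSMUSG00000020277, chromosome 10, 77986947 to 78010083, minus strand), had 3082 and 3222 units in WT, against 4147, 4099, 3720 and 4750 units in KO lines 1 to 4. The WT libraries were close together and every KO line was higher. The 1.33-fold rise (log2 0.40, SE 0.110, adjusted p = 0.0484) lay near the threshold and was lost whichever library was removed (adjusted p = 0.0609 to 0.121). Nor did it pass when each library was centred on its median, a change of scale that lowered the difference to 0.36 (adjusted p = 0.0688). Pfkm, the muscle type and not among the 10, went from 464 and 378 units to 1058, 902, 764 and 632 units. It rose by a log2 of 0.95 (adjusted p = 0.0263) and, unlike Pfkp and Pfkl, was lowest in KO line 4 among the KO lines. Its call was lost without WT replicate 2, KO line 2 or KO line 3 (adjusted p = 0.107 at most).

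The ratio of Pfkp to Pfkl was also higher in KO. Its log2 was -0.09 and 0.26 in WT and 0.69, 0.79, 0.60 and 0.93 in the KO lines, with no overlap. The difference of 0.67 gave p = 0.0667 in the exact two-sided permutation test, the smallest possible (adjusted p = 0.133 over the 4 pairs), and ranged from 0.49 to 0.84 with each library left out. The pairs Hk2 over Gpi1 (KO minus WT -0.06, exact permutation p = 0.867) and Ldha over Pkm (-0.04, exact permutation p = 1) overlapped between the groups, and KO line 4 was the highest library for both.

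**Figure D2:**
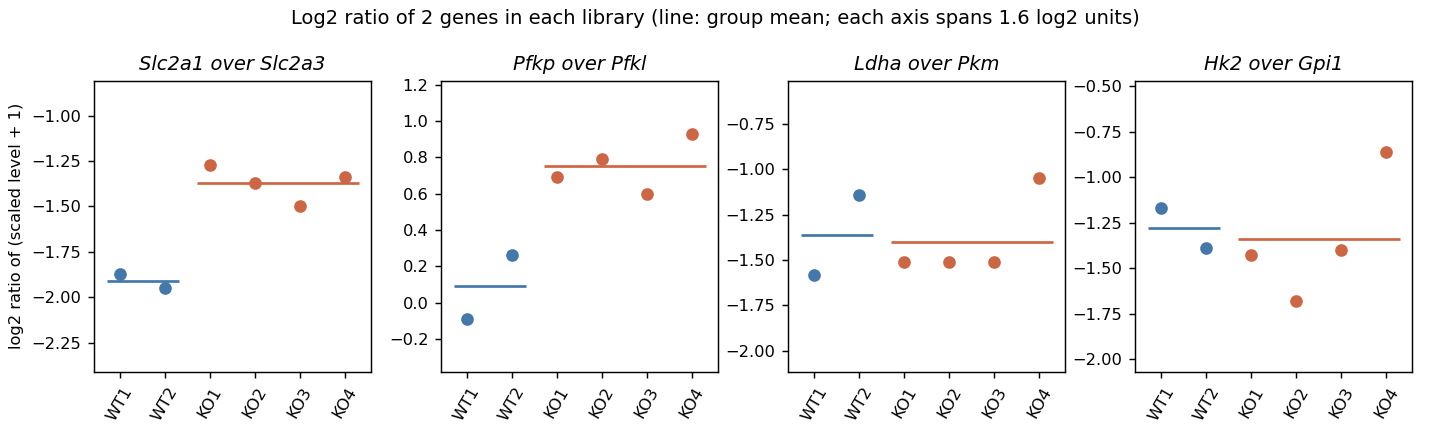
Log2 ratio of (scaled level + 1) for 4 pairs of genes (vertical axes, each spanning 1.6 log2 units), 1 point per library, with WT in blue, KO in orange and lines at the group means. The groups separate for Slc2a1 over Slc2a3 and for Pfkp over Pfkl and overlap for the other pairs.

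From aldolase onward none of the 10 genes passed. Aldoa encodes aldolase A, which cleaves fructose 1,6-bisphosphate (ENSMUSG00000030695, chromosome 7, 126795234 to 126800751, minus strand). It stood at 16018 units in both WT libraries and in KO line 3, and at 20699, 17570 and 22786 units in KO lines 1, 2 and 4. No KO line was below WT, and the difference did not pass (log2 0.25, SE 0.143, adjusted p = 0.249).

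Pgk1 encodes phosphoglycerate kinase 1, the first ATP-making step (ENSMUSG00000062070, chromosome X, 106187100 to 106203699, plus strand). Its WT levels were 14358 and 9676 units, against 14358, 13562, 10934 and 20699 units in KO lines 1 to 4. The KO lines lay on both sides of WT replicate 1 or level with it (log2 0.30, SE 0.261, adjusted p = 0.449), and without WT replicate 2 the difference was 0.01.

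Pkm encodes pyruvate kinase M, the last step to pyruvate (ENSMUSG00000032294, chromosome 9, 59656368 to 59679375, plus strand). It stood at 36448 units in 5 libraries and at 29849 in WT replicate 2, which is the next lower step of the table. The difference (log2 0.14, adjusted p = 0.283) was thus a single step in a single library. It was 0.00 without WT replicate 2, and without WT replicate 1 it passed at 0.29 (adjusted p = 0.00598). Values per gene do not separate the M1 and M2 splice forms of Pkm.

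Ldha encodes the A subunit of lactate dehydrogenase (ENSMUSG00000063229, chromosome 7, 46841475 to 46855627, plus strand). It stood at 12186 and 13550 units in WT, at 12780 units in KO lines 1, 2 and 3, and at 17554 units in KO line 4. KO lines 1 to 3 lay between the WT libraries (log2 0.11, SE 0.148, adjusted p = 0.638), and without KO line 4 the difference was -0.01. Pgk1 and Ldha have near-identical processed pseudogenes, and how the authors' counting treated such reads is not given in the sources used here, so their levels are uncertain.

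**Figure D3:**
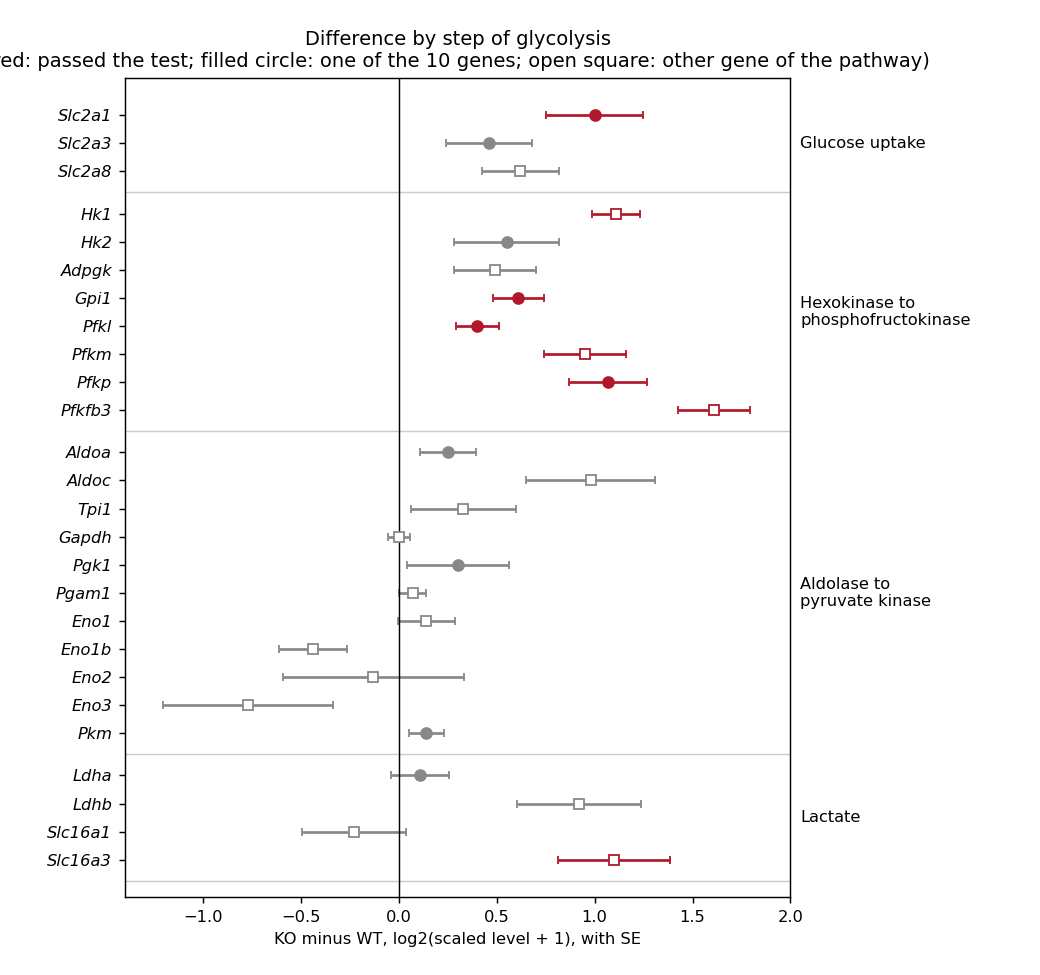
Difference KO minus WT in log2(scaled level + 1) (horizontal axis, points with SE bars) for 26 transporters and enzymes in pathway order; circles are the 10 genes, open squares other measured genes, and red marks those that passed the test. The red points lie at Slc2a1, Hk1, Gpi1, Pfkl, Pfkm, Pfkp, Pfkfb3 and Slc16a3, and none lies between aldolase and pyruvate kinase.

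Among the glycolytic enzymes themselves, the calls lay before aldolase, a division made after the values were seen, while the lactate exporter Slc16a3 at the end of the pathway was called too. Of 7 measured enzymes before aldolase (Hk1, Hk2, Adpgk, Gpi1, Pfkl, Pfkm and Pfkp) 5 rose, with a median log2 difference of 0.61. Over all genes, 9.75% were called higher and 7.34% lower. Of 13 measured enzymes from aldolase to lactate dehydrogenase none passed (limma), with a median of 0.14. At an unadjusted p below 0.05 in limma, 2 of the 13 were higher and 1 lower, beside 2241 and 1720 of all 10989 genes. The lower set holds the most compressed values: Gapdh, the glyceraldehyde 3-phosphate dehydrogenase gene, was listed at 78894 units, the maximum of the table, in all 6 libraries. The triose phosphate isomerase gene Tpi1, also on steps shared by about 10 genes, had 4994 and 5364 units in WT, against 6030, 5462, 5226 and 10384 units in KO (log2 0.33, adjusted p = 0.418). The aldolase C gene Aldoc, far less abundant, had 238 and 256 units in WT, against 402, 532, 346 and 846 units in KO. Its log2 difference of 0.98 (SE 0.329, adjusted p = 0.0811) and that of Ldhb, 0.92, were as large as the 0.95 of Pfkm, with all KO lines above WT, but did not pass. Tpi1 and Ldhb lie on chromosome 6, which as a whole was higher in KO line 4 than in the other KO lines (median log2 0.45). Their own excess in KO line 4 was 0.90 for Tpi1 and 0.62 for Ldhb. The enzymes before and after aldolase were not tested against each other. Eno1b and Eno1 are near-identical copies of the enolase 1 gene, and their split is uncertain.

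Over the 8 lists of pathway genes, 61 genes outside the 10 were measured, of 92 listed. Of these, 11 rose, 2 fell and 48 did not pass, with a median log2 difference of 0.17. Over all genes the shares called were 9.75% higher and 7.34% lower, with a median of 0.04. Without KO line 2 the number of pathway genes that rose was 4, and without KO line 3 it was 5. Those fits called 237 and 306 genes higher over the whole table, beside 1071 with all libraries. The largest rise among enzymes of the glycolytic lists was that of Pfkfb3, which makes fructose 2,6-bisphosphate, the activator of phosphofructokinase. It went from 236 and 257 units to 798, 835, 598 and 950 units, 3.23-fold more (log2 1.61, SE 0.185, adjusted p = 0.00509), a difference that passed with any single library left out. Pgm2, a phosphoglucomutase family enzyme, rose from 390 and 564 to 914, 963, 827 and 1158 units (log2 1.01, adjusted p = 0.0167), a call lost without KO line 2 (adjusted p = 0.0582). The other 5 of 7 measured genes in that list, of fructose 2,6-bisphosphate and bypass enzymes, did not pass.

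Among 7 measured genes of lactate and pyruvate handling, only Slc16a3, which encodes the lactate exporter MCT4, rose, where 9.75% of all genes were called higher. Slc16a3 went from 1026 and 1278 units to 1931, 2577, 1954 and 3870 units (log2 1.10, limma adjusted p = 0.0414). It failed the test after removal of any of 4 single libraries. Slc16a1, which encodes the related transporter MCT1, did not pass (log2 -0.23, adjusted p = 0.565). Ldhb, the B subunit of lactate dehydrogenase, had 4616 and 3236 units in WT, against 9676, 5770, 5057 and 10063 units in KO (log2 0.92, adjusted p = 0.0876).

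Pyruvate dehydrogenase and its kinases held 1 higher and 1 lower gene among 11 measured, shares of the same order as the 9.75% and 7.34% over all genes. Pdk3, a kinase that switches off pyruvate dehydrogenase, rose by a log2 of 0.66 (adjusted p = 0.0217). Pdhx, which anchors a subunit of that complex, fell from 738 and 746 units to 583, 500, 576 and 522 units (log2 -0.44, adjusted p = 0.0387), a call lost whichever library was removed (adjusted p = 0.0504 to 0.12). The other 9 genes of this list did not pass, nor did the mitochondrial pyruvate carrier genes Mpc1 and Mpc2. Pdk1, a kinase gene and known HIF target, had a log2 difference of 0.03.

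In the side pathways, 1 of 4 gluconeogenesis genes and 2 of 9 pentose phosphate genes rose and none fell (limma). At an unadjusted p below 0.05 in limma, 0 and 1 of them were lower. Over all genes, 9.75% were called higher and 7.34% lower, and these short lists were not tested against those shares. The riser in gluconeogenesis was Pcx, pyruvate carboxylase (log2 0.53, adjusted p = 0.0219). H6pd, a glucose 6-phosphate dehydrogenase of the endoplasmic reticulum, rose by 1.31 (adjusted p = 0.0218), and the transketolase-like Tktl2 by 1.96 from only 4 and 8 units. The cytosolic enzyme genes G6pdx (log2 0.08), Pgd (0.08), Tkt (0.00) and Taldo1 (0.00) did not pass. The calls of Pdk3, Pcx and H6pd were each lost on removal of any of 3 single libraries, always including KO line 2 and KO line 3. That of Tktl2 was lost on removal of either of these 2. Calls were lost over the whole table in these fits: 237 genes were higher without KO line 2 and 306 without KO line 3, beside 1071 with all libraries. The log2 difference of Pdk3 was 0.67 and 0.66 in these fits, and that of Pcx 0.53 and 0.52. The size for Tktl2 depended on the scale, with 2.46 and 0.81 at pseudocounts of 0.5 and 5, and with quantile normalization it was 1.19 and not called (adjusted p = 0.135).

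Of 10 measured HIF regulators, Egln3 and Hif3a rose, Egln2 fell and 7 did not pass. At an unadjusted p below 0.05 in limma, 6 of the 10 were higher and 3 lower, beside 2241 and 1720 of all 10989 genes. Over all genes, 9.75% were called higher and 7.34% lower, and the list was not tested against those shares. Egln3 and Egln2 encode prolyl hydroxylases that mark HIF for degradation. Egln3 went from 140 and 98 units to 472, 504, 352 and 636 units (log2 1.91, limma adjusted p = 0.00667). Hif3a, a HIF family member, went from 64 and 48 units to 182, 197, 166 and 310 units (log2 1.66, adjusted p = 0.0126). Egln2 went from 1201 and 1185 units to 788, 816, 848 and 678 units (log2 -0.60, adjusted p = 0.0186), a call lost without KO line 2 or KO line 3 (adjusted p = 0.0617 at most). Hif1a, the main oxygen-regulated subunit, had 3301 and 2704 units in WT, against 2476, 2442, 2572 and 2317 units in KO, below both WT libraries but not past the test (log2 -0.28, adjusted p = 0.103).

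Promoter sequence is shown for the genes that rose and for Pgk1, a classical HIF target that did not pass. The HIF core was looked for because several genes of the pathway are known HIF targets. Sequence further upstream was not examined, and a match shown here need not be an established element. The sequences are 250 bases upstream of the RefSeq start (build GRCm38.p6), written 5′ to 3′ on the strand of the gene, with each ACGTG or GCGTG on either strand in capitals (CACGT and CACGC on the strand shown). Overlapping matches, as in the palindrome CACGTG, count separately.
Slc2a1 (chr4:119108495-119108744, plus strand): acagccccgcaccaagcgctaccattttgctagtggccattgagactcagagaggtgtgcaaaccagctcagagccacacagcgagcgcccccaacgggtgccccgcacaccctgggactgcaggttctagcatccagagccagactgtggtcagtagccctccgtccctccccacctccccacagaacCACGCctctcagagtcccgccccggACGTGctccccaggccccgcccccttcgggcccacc
Gpi1 (chr7:34230337-34230586, minus strand): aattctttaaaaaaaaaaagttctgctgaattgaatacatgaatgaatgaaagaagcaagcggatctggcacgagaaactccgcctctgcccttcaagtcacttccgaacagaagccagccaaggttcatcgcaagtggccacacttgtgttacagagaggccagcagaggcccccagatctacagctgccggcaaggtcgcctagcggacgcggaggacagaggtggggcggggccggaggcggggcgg
Pfkl (chr10:78009808-78010057, minus strand): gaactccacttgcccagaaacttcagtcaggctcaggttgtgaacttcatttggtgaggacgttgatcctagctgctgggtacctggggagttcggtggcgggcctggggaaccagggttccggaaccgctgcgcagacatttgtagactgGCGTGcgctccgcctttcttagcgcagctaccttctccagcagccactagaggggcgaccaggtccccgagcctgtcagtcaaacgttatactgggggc
Pfkp (chr13:6648772-6649021, minus strand): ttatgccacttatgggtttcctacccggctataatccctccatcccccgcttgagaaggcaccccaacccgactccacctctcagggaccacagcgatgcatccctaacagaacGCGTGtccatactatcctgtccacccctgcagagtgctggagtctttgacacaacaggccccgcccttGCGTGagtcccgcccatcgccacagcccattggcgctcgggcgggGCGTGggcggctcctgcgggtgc
Pgk1 (chrX:106186850-106187099, plus strand): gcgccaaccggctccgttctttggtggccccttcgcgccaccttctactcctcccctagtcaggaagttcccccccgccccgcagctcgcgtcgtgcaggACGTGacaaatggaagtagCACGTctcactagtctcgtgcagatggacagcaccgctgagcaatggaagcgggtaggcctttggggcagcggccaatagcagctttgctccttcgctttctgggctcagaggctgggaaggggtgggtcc

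A core was present in the windows of Slc2a1 (2 matches), Pfkl (1), Pfkp (3) and Pgk1 (2), and these letters were not in that of Gpi1. RefSeq windows were at hand for 9 of the 10 genes, all but Slc2a3, and 10 of their 13 windows held a core. Among all 32851 windows 38.6% held a core, and among the 10625 windows of measured genes 57.1% did. Genes with several starts, Aldoa, Pkm and Ldha, had more than 1 window. The first Ldha window held 5 matches, from 2 copies of CACGTG and a further CACGT, although Ldha did not pass the test. Matches are a description of sequence, and no binding was measured.

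KO line 4 was the highest library for 8 of the 10 genes and tied for the highest in the others, Gpi1 and Pkm. Over all genes, KO line 4 alone was the highest library for 19.4% (2137 genes). Its median excess over the mean of the other KO lines was 0.47 on the log2 scale for the 10 genes, beside -0.01 for all genes and 0.00 for the 155 genes with a mean of at least 10000 units. For genes off chromosome 6 the excess reached 0.69 (Pgk1), 0.58 (Slc2a1), 0.49 (Pfkp) and 0.46 (Ldha), while the medians of their chromosomes lay between -0.05 and 0.01. KO line 3 was alone the lowest of the KO lines for 7 genes.

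WT replicate 2 was alone the lowest library for 6 genes, Slc2a1, Slc2a3, Hk2, Gpi1, Pgk1 and Pkm. Its level relative to WT replicate 1 was lowest for Slc2a1 (log2 -0.71), Slc2a3 (-0.64) and Pgk1 (-0.57), and it was higher for Pfkp (0.42). WT replicate 2 also had 131 genes at 0, beside 13 to 19 in the other libraries. Together the 10 genes made up 0.906% and 0.751% of the deposited total in WT and 1.03%, 1.01%, 0.938% and 1.29% in KO lines 1 to 4.

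**Figure D4:**
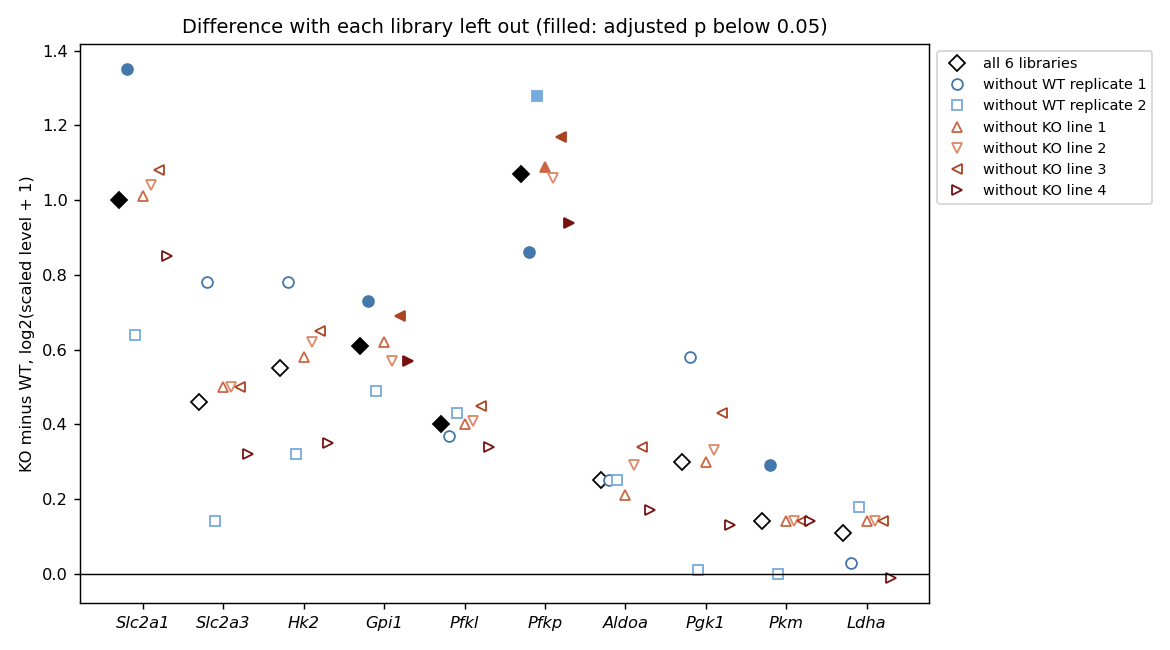
Difference KO minus WT in log2(scaled level + 1) (vertical axis) for each of the 10 genes with all 6 libraries (diamonds) and with each library left out; filled symbols mark an adjusted p below 0.05. Slc2a1, Slc2a3, Hk2 and Pgk1 spread most, with the highest value without WT replicate 1, while Pfkp lies between 0.86 and 1.28.

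The 10 genes varied together over the 6 libraries. Of their 45 pairs, 44 had a positive Pearson correlation of log2 levels, with a median of 0.74 and a range of -0.01 (Pkm with Ldha) to 0.98. The points share the group difference, KO line 4 and the normalization, so this is a description only. Outside the lists, the genes whose levels were most like the mean standardized level of the 10 were Sbf2 (r = 0.997), Tmem143 (0.995), Alkbh5 (0.993), Dag1 (0.991) and Zfp346 (0.991), over 6 libraries. All 5 were highest in KO line 4 and lowest in WT replicate 2, and none passed the test. These extremes follow from the choice, since the mean they were picked to match was itself highest in KO line 4 (1.35) and lowest in WT replicate 2 (-1.2). Among 10989 genes and 6 libraries, correlations this high can arise by chance.

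Feeder cells were part of the cultures, and fibroblast markers differed between the same groups. Of 15 measured fibroblast markers 13 were lower in KO and none higher, with a median log2 difference of -2.51. Shares over all genes were 7.34% lower and 9.75% higher, with a median of 0.04. The summed level of the markers was 55488 to 85072 units in WT and 42718 to 45860 units in KO. Most of the KO sum was the fibronectin gene Fn1, on a top step and not called; without it, a choice made after seeing the data, the sums were 25633 to 48620 and 6266 to 9408 units. No marker of that list was at 0 in any library. Col1a2, a defining collagen chain, had 9391 and 3548 units in WT, against 440, 180, 304 and 250 units in KO. Between the WT libraries the summed level was lower in WT replicate 2, as were 6 of the 10 genes. In bulk RNA fewer cells of a type and less RNA per cell cannot be told apart, and the part of feeder RNA in the glycolytic levels was not tested.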

How the data were processed

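RNA of 2 WT and 4 KO libraries was sequenced after TRIzol extraction, per the labels' protocols. RSEM 1.2.17 and Bowtie2 2.2.0 with build mm10 are listed per the submitters' processing notes; the sources used here give neither their roles nor the annotation or normalization. The authors deposited 1 normalized expression score per gene and library, under the name CPM; the values sum to between 14612799 and 14722877 per library and have nearly the same sorted values in every library, so the depth is unknown and no counting error can be given. Scores were divided by 14.7, the mean library total over 1000000, a pseudocount of 1 was added and log2 taken; this understates changes of low genes. A minimum scaled value of 1 in 2 or more libraries left every gene in. Groups were compared with limma 3.58.1 in R 4.3.3 (lmFit, then eBayes with trend, two-sided), on all 6 libraries and genes, with 4 residual degrees of freedom, and the procedure was tested on simulated data. Fold rises are ratios of mean deposited scores. Positions are from GENCODE M21 (10941 genes matched by identifier). Named genes are the 10 members, Ddx5, pathway genes past the test, and the 5 genes most like the members; Adpgk, Slc2a8, Aldoc, Gapdh, Tpi1, Eno1, Eno1b, Ldhb, Slc16a1, Mpc1, Mpc2, Pdk1, G6pdx, Pgd, Tkt, Taldo1, Hif1a, Pou5f1, Nanog, Klf4, Lin28a, Fn1 and Col1a2 were named after their values were seen. The members and lists were chosen with earlier results of these data known. Alternatives covered the pseudocount, filter, scaling, variance model, chromosome-wide shifts, replicate block and each library left out.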

Additional observations from a re-analysis of the deposited data

Results flagged for a closer look

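In the 4 KO lines, 1 line stood apart from the rest for 2 of the 23 genes examined in this way, the 10 genes and the 13 pathway genes past the test. Slc2a3 stood at 36436 units in KO line 4 and at 24994 units in each of the other 3 lines. Ldha stood at 17554 units in KO line 4 and at 12780 units in the other 3. In both cases the gap made up the whole range because the other 3 lines share a step, so the flag follows from the steps. The usual rate of this check, about 1 in 20 groups flagged by chance, is for values without ties and does not apply to these 2 genes.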

How the results depend on the processing

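Pseudocounts of 0.5 and 5, no filter and a minimum of 10 scaled units left all 4 of the higher calls among the 10 genes. With quantile normalization, trimmed-mean scaling, median centring or chromosome centring 3 were called. Without the mean-variance trend 2 of the 10 were called higher and 4 pathway genes lower, and with chromosome centring 6 pathway genes were lower. With each library left out, the genes called over the whole table numbered 237 to 2004 higher and 235 to 1300 lower, the 10 genes 0 to 4 higher, and the pathway genes 4 to 13 higher and 0 to 5 lower. The ratio of Ldha to Pkm then lay between -0.26 and 0.18 and that of Hk2 to Gpi1 between -0.22 and 0.05, so both changed sign. Ldha was at -0.01 without KO line 4 and with the replicate block. A replicate block for the numbers left 2 higher and 18 lower genes in the whole table, and called 0 of the 10 genes and 0 pathway genes (limma; 5 and 19 higher, 0 and 6 lower, at an unadjusted p below 0.05). KO lines 3 and 4 have no WT library of their number, so in that fit they add nothing to the difference between the groups. Fewer residual degrees of freedom were left as well, so the lost calls are not a measure of pairing alone. WT replicates and KO lines share only a number, and nothing in the labels pairs them. Their deviations from the group means correlated at 0.14 for number 1 and 0.10 for number 2. Where a WT library was left out, the remaining one is assumed to vary like the KO lines. The unknown depth limits what can be said of low genes such as Tktl2, and the shared steps what can be said of the most abundant ones. The cause of the changes between settings was not tested.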
